A study of Homo sapiens with 24 samples.

Results

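The cytosolic ribosome joins amino acids into protein in the cytoplasm. Its small subunit reads the mRNA and its large subunit forms the peptide bond, and each is built from ribosomal RNA and a fixed set of ribosomal proteins that are needed in matched amounts. The mRNAs of these proteins are among the most abundant of a growing cell, and most begin with a cytosine followed by a run of pyrimidines (a 5′ terminal oligopyrimidine, or TOP, tract), through which mTORC1 signalling controls their translation. Ribosomal protein genes were taken as every gene whose symbol was RPL or RPS with a number and at most 1 closing A or X, together with RPLP0, RPLP1, RPLP2 and RPSA. This gave 77 genes, 46 of the large and 31 of the small subunit, among 29744 genes, and all 77 passed the filter on low counts in every fit.

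RNA was read by TAGseq, a method that sequences tags from the 3′ ends of polyadenylated transcripts, in HCC1806 and MDA-MB-231, both established cell lines of triple-negative breast cancer. The aneuploid parental cells of each line served as control. They were set against 3 populations with whole-genome doubling, obtained through fusion of cells, through mitotic slippage (exit from mitosis without division) or through cytokinesis failure. The doubled cells had been sorted by FACS and expanded, and every population was grown for 48 hours after seeding with no further treatment. Each of the 8 groups held 3 biological replicates, 24 libraries in all. Only 1 population was derived by each route in each line, so replicates are cultures of 1 population, p-values measure the spread between such cultures, and the route cannot be told apart from the population derived by it.

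Totals of estimated counts ran from 3060622 to 4030297 in HCC1806 and from 2455707 to 3837957 in MDA-MB-231, and the biological coefficient of variation was 3.88% and 5.28%. Most identity markers matched the labels: VIM, a mesenchymal filament gene, had 0 to 7 counts in HCC1806 libraries and 7598 to 11262 in MDA-MB-231, whereas the basal keratin gene KRT5 had 1135 to 1934 and 0 to 1. Between the parental lines, 7 of 9 tested mesenchymal genes were lower in HCC1806 and 2 higher, and all 11 basal genes were higher there. Of all genes, 38.8% were higher and 37.4% lower in that comparison. The immune marker PTPRC reached at most 3 counts and the fibroblast marker DCN at most 1. A pair of MDA-MB-231 libraries, slippage replicate 3 and cytokinesis failure replicate 1, stood apart: compared gene by gene with their partners, their counts gave a reduced chi-square of 2.26 to 2.45, where every other pair of replicates gave 1.30 to 1.87. Some reads cannot be placed in 1 gene: 30.5% of the members' estimated counts were not whole, and RPS10, RPL17 and RPL36A share sequence with listed read-through genes and many members with pseudogenes, so their values are uncertain. Calls that change when both are left out are given with and without them. Levels are in TMM-scaled CPM (counts relative to library size), changes are log2 fold changes ± SE, and rose, fell, higher and lower refer to genes past an adjusted p of 0.05 in edgeR's quasi-likelihood test, adjusted over all genes tested. CPM were scaled within each line, but over all 24 libraries where the parental lines are compared, so values of the same libraries differ between these scales. Summed marker levels are in CPM without TMM scaling.

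RefSeq promoter windows (GRCh38.p14, from 250 bases before to 50 after each annotated start) matched 62 of the 77 genes by symbol. Of these, 46 (74.2%) began with C followed by at least 4 further pyrimidines on the sense strand, against 5.14% of all 27305 genes with such a window. A gene with several listed starts counted if any start matched, and the start with the longest run is shown. The letters CTTCCG, the core bound by ETS factors, searched on both strands and free to overlap the pyrimidine run, lay in 40 windows (64.5%) against 22.6% of all. The letters TATAAA on the sense strand before the start lay in 2 (3.23%) against 8.38%. The windows of 30 bases around the start are printed for genes on which the results below turn, with the unbroken pyrimidine run from the annotated start in capitals. RPS27 and RPL35 rose in the fused HCC1806 population and RPL22 in the fused MDA-MB-231 population, and RPS21, RPL36A and RPL39 rose in both. RPS16 changed in opposite directions, RPL11 rose in neither, and RPS4X has no such run at its start:
RPS27 (chr1:153990747-153990776, plus strand): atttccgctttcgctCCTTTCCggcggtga
RPL35 (chr9:124861943-124861972, minus strand): agccccgcctacttcCTCTTTCCCTCggag
RPS21 (chr20:62387088-62387117, plus strand): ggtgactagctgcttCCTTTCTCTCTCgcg
RPL22 (chr1:6199581-6199610, minus strand): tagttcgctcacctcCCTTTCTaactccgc
RPL36A (chrX:101390996-101391025, plus strand): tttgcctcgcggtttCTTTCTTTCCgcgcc
RPL39 (chrX:119791616-119791645, minus strand): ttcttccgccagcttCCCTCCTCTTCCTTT
RPS16 (chr19:39435935-39435964, minus strand): gtggcccctagctttCCTTTTCCggttgcg
RPL11 (chr1:23691791-23691820, plus strand): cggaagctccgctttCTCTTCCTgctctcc
RPS4X (chrX:72277234-72277263, minus strand): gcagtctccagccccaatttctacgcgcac

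Ribosomal protein genes took up a larger share of the counts in the fused population than in the control of both lines. In HCC1806 the 77 genes held 11.54%, 11.96% and 11.51% of the counts in control replicates 1 to 3 and 12.64%, 12.66% and 12.57% in fusion. Slippage libraries lay at 11.89% to 12.05% and cytokinesis failure at 11.80% to 12.15%, both overlapping the control. In MDA-MB-231 the share was 9.89%, 10.06% and 9.97% in control and 11.01%, 10.75% and 10.53% in fusion. There slippage lay at 9.92% to 10.08% and cytokinesis failure at 9.69% to 9.99%. The fusion libraries were above every other library of their line, without overlap.

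The balance of the subunits shifted less in HCC1806 fusion than in MDA-MB-231 fusion. The ratio of large to small subunit counts was 1.327 to 1.337 in HCC1806 control libraries. Fusion (1.31 to 1.328) and slippage (1.309 to 1.334) overlapped that control, and cytokinesis failure (1.316 to 1.326) lay below it. In MDA-MB-231 the ratio was 1.409 to 1.41 in control and 1.345 to 1.369 in fusion, so the fused libraries lay below all controls. Slippage (1.369 to 1.402) also lay below the control there, and cytokinesis failure (1.375 to 1.424) overlapped it. In the deposited TPM, in which each value is divided by transcript length and the sum of a library is fixed, the share of the 77 genes was 26.1% to 27.2% in HCC1806 control and 27.8% to 29.0% in fusion, with cytokinesis failure at 27.6% to 28.1%, also above all controls and overlapping fusion. Slippage (26.52% to 27.25%) overlapped the HCC1806 control. The same share in MDA-MB-231 was 23.1% to 24.4% in control and 23.7% to 24.8% in fusion, which overlap.

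**Figure D1:**
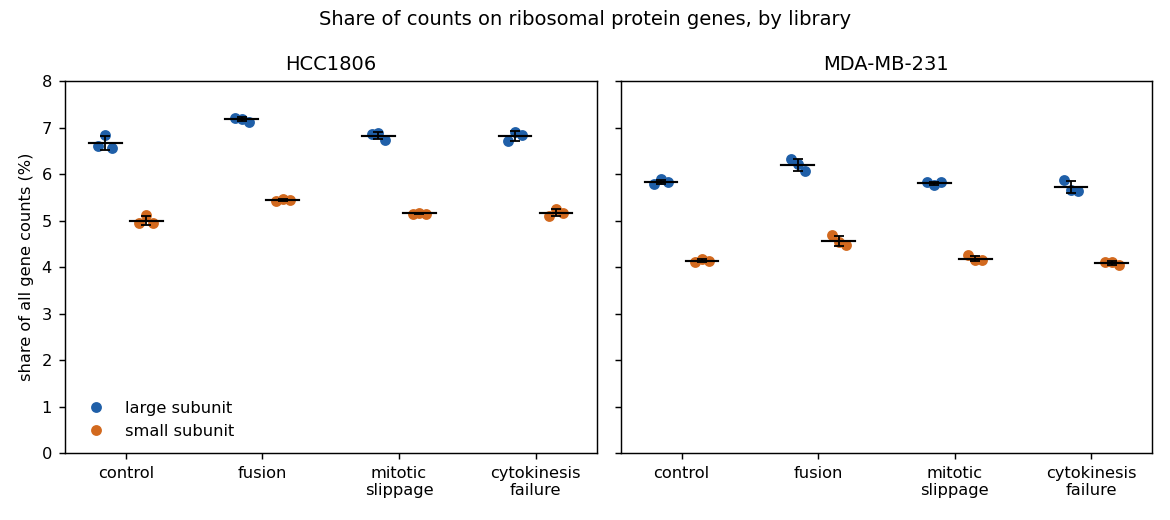
Share of all gene counts (%) on large and small subunit ribosomal protein genes in each of the 24 libraries; points are libraries, horizontal lines the mean and whiskers the SD of 3 replicates. In both lines the fused population lies highest, at 12.57% to 12.66% for both subunits together in HCC1806 and 10.53% to 11.01% in MDA-MB-231.

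Within the parental lines, TPM ranged widely among members. In HCC1806 control RPS28 (11790 ± 466 TPM, SD, n = 3) and RPS21 (9470 ± 227) were among the most abundant small subunit mRNAs, and the least abundant were RPS3 (926 ± 23), RPS9 (723 ± 45) and RPS23 (479 ± 11). For the large subunit, RPLP2 (11190 ± 374 TPM) and RPL41 (9963 ± 336), which encodes the smallest protein of the ribosome, stood highest, followed by RPLP1 (8054 ± 146). RPL10 (573 ± 27), RPL27A (498 ± 5.6) and RPL13 (256 ± 3.4) stood lowest. In MDA-MB-231 control the order began with RPS29 (11440 ± 603 TPM), RPS28 (11230 ± 338) and RPS21 (9542 ± 479) for the small and RPL41 (9440 ± 352), RPL37A (7602 ± 164) and RPL36 (6542 ± 192) for the large subunit. RPS3, RPS9 and RPS23 again closed the small subunit, and RPL22, RPL27A and RPL13 the large one. Tags come from transcript ends, so division by full transcript length lowers the TPM of long transcripts relative to short ones, and these orders hold on that scale alone.

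The parental lines differed in most members, as they did in most of all genes tested. In HCC1806 control against MDA-MB-231 control, fitted on all 24 libraries, 46 of 77 genes were higher (26 large, 20 small subunit) and 15 lower (11 and 4), with a median of 0.24 against 0.0071 over all 12563 genes tested. Of all genes, 38.8% were higher and 37.4% lower, so the count of higher members lay above the background and that of lower members below it. RPS2, a small subunit protein that lines the mRNA entry, had 3624 ± 186 CPM (SD, n = 3) in HCC1806 and 1475 ± 6.9 in MDA-MB-231, a change of 1.30 ± 0.035 (adjusted p = 3.00e-50). For the RNA-binding large subunit protein RPL22 the levels were 2081 ± 49 and 921 ± 23 CPM (1.18 ± 0.036), and for RPL21 2273 ± 127 and 1028 ± 26 CPM (1.14 ± 0.038). Libraries of the 2 lines did not overlap for these 3 genes. RPS19, mutated in Diamond-Blackfan anaemia, went the other way, with 1303 ± 11 CPM in HCC1806 and 2063 ± 31 in MDA-MB-231 (-0.66 ± 0.074). RPL34 (-0.70 ± 0.040), RPL10 (-0.55 ± 0.035) and RPS6 (-0.26 ± 0.041) were also lower in HCC1806. On log2(TPM + 1), which moved the median of all genes to -0.12, the split was 37 higher and 28 lower.

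In fused HCC1806 cells most ribosomal protein mRNAs were higher, by small amounts. Against control, 54 of 77 genes were higher (33 of 46 large, 21 of 31 small subunit) and 1 was lower, with a median of 0.14 against -0.0031 over all 11467 genes tested. Of all genes, 5.33% were higher and 5.55% lower, and the quartiles of their change were -0.14 and 0.13. The 46 large subunit genes spanned -0.088 to 0.32 with none called lower by edgeR, 1 lower at an unadjusted p under 0.05 and 0 by DESeq2. The log2(TPM + 1) scale gave 25 higher and 2 lower, and 42 and 1 when each library was centred on its median.

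RPS27, a zinc-finger protein of the small subunit, had 889, 942 and 909 CPM in the control and 1166, 1143 and 1109 in the fused HCC1806 replicates. The fused libraries lay above all controls, a change of 0.32 ± 0.035 (adjusted p = 8.82e-12). RPL13 had 1238, 1343 and 1242 CPM in control and 1596, 1641 and 1533 in fusion (0.32 ± 0.038, adjusted p = 2.09e-08). RPL35, which sits at the exit of the peptide tunnel, had 757, 725 and 759 CPM in control and 949, 982 and 864 in fusion (0.32 ± 0.038). Neither gene overlapped between the groups. The decoding-centre protein RPS23 (0.30 ± 0.040), RPS21 (0.28 ± 0.032), RPS15 (0.27 ± 0.031), RPL36A (0.25 ± 0.036) and RPL29 (0.25 ± 0.041) rose as well.

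RPS16, a small subunit protein that reaches the tRNA site, was the one member that fell in fused HCC1806 cells. It had 1005, 1072 and 994 CPM in control and 843, 878 and 896 in fusion, without overlap, a change of -0.23 ± 0.035 (adjusted p = 5.61e-07). Without control replicate 3, 2 members were lower. RPL5 and RPL11, which bind the 5S rRNA and as a free complex bind the p53 regulator MDM2, differed from each other. RPL5 rose by 0.20 ± 0.033 (adjusted p = 3.37e-06), whereas RPL11 had a change of -0.041 ± 0.033 (adjusted p = 0.502). RPLP0, the base of the stalk that recruits translation factors, had 0.040 ± 0.033 (adjusted p = 0.516), and RPS6, the substrate of S6 kinase, 0.070 ± 0.037 (adjusted p = 0.242). RPSA, also known as the laminin receptor precursor, rose by 0.19 ± 0.031. RPL41 rose by 0.13 ± 0.032 (adjusted p = 0.0038), a call lost without control replicate 3 (adjusted p = 0.0751). Both RPSA and RPL41 lost the call on log2(TPM + 1).

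In fused MDA-MB-231 cells 42 of 77 genes were higher than in control (20 of 46 large, 22 of 31 small subunit), with a median of 0.15 against -0.0025 over all 11424 genes tested. Of all genes, 9.34% were higher and 8.11% lower, and the quartiles of their change were -0.18 and 0.16. No member was lower by edgeR, with 0 at an unadjusted p under 0.05 and 0 by DESeq2. All 31 small subunit genes had a positive fold change (0.0455 to 0.53), against 40 of 46 of the large subunit, with medians of 0.17 and 0.13. Without both libraries that stood apart, neither of which is a fusion or control library but which share the estimate of spread, 54 members were higher and 1 lower. On log2(TPM + 1) the count fell to 8 higher and 1 lower, while the median of all genes moved to -0.11. The median of members lay 0.13 above that of all genes on this scale, against 0.15 on counts, and centring each library on its median gave 31 higher and 0 lower.

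RPS4X, the X-linked copy of a small subunit protein, had the largest change of any member in this comparison. Its level was 898, 905 and 888 CPM in the control and 1359, 1280 and 1253 in the fused MDA-MB-231 replicates, a change of 0.53 ± 0.043 (adjusted p = 1.27e-12). RPS20 had 534, 580 and 593 CPM in control and 855, 761 and 766 in fusion (0.48 ± 0.050, adjusted p = 1.48e-09). RPS27A, which is made as a fusion with ubiquitin, had 935, 954 and 1007 CPM in control and 1414, 1291 and 1308 in fusion (0.47 ± 0.043). All 3 genes kept the groups apart. RPS7 rose by 0.47 ± 0.050, RPL36A by 0.47 ± 0.043, RPL39, a small protein of the peptide tunnel, by 0.46 ± 0.056, and RPL7 by 0.43 ± 0.045.

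RPL22 had 971, 938 and 982 CPM in the MDA-MB-231 control and 1303, 1318 and 1292 in fusion, a change of 0.44 ± 0.041 (adjusted p = 8.49e-11). Slippage (921 to 972 CPM) and cytokinesis failure (950 to 973 CPM) overlapped the control. RPLP0 rose by 0.13 ± 0.044 (adjusted p = 0.0294), a call lost without any 1 of the control libraries, without fusion replicate 1 (adjusted p = 0.319) or 2, by DESeq2 (adjusted p = 0.075) and on TPM. RPL5 (-0.038 ± 0.041, adjusted p = 0.582), RPL11 (0.099 ± 0.046, adjusted p = 0.135), RPS6 (0.068 ± 0.044, adjusted p = 0.315), RPS27 (0.10 ± 0.042, adjusted p = 0.0844), RPSA (0.089 ± 0.038, adjusted p = 0.104) and RPL41 (0.20 ± 0.073, adjusted p = 0.0808) did not pass. Without both libraries that stood apart, RPL41 (adjusted p = 1.09e-06), RPS27 (adjusted p = 0.0212), RPSA (adjusted p = 0.0222) and RPL11 (adjusted p = 0.0463) passed in edgeR at nearly the same fold changes. RPL41 also passed by DESeq2 (adjusted p = 0.0204), with no filter and with only the groups compared. RPL5 was lower in fusion on log2(TPM + 1) by limma (-0.16, adjusted p = 0.0467).

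**Figure D2:**
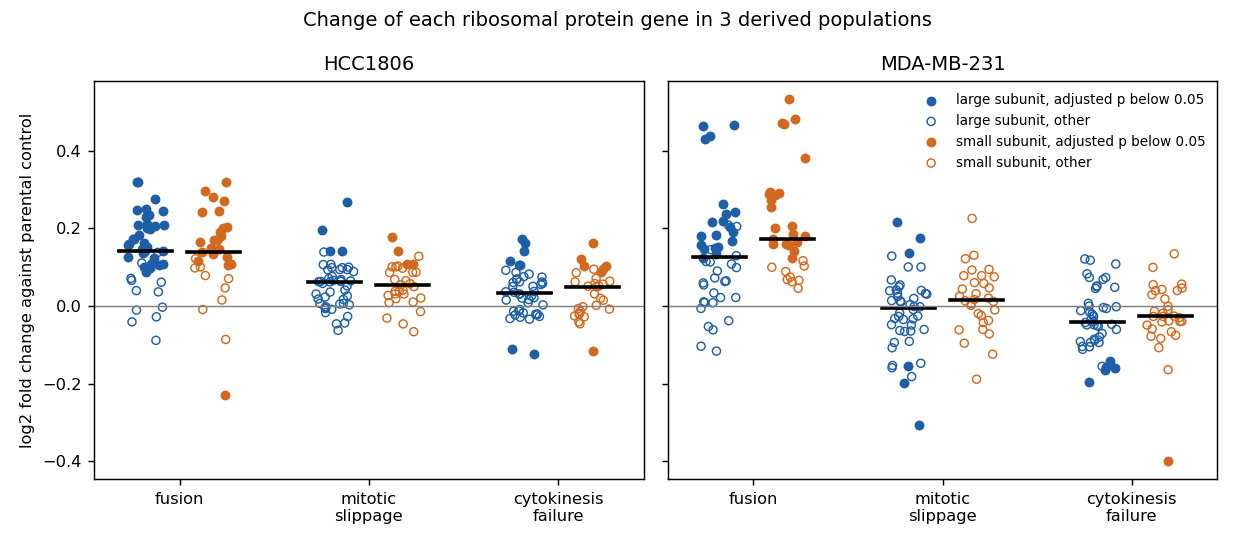
Log2 fold change against the parental control (vertical axis) of each of the 77 genes in 3 doubled populations of each line; filled points have an adjusted p below 0.05 and black bars are medians. Most points of the fused populations sit above 0 in both lines, with 54 and 42 genes higher, and RPS14 lies lowest at -0.40 in MDA-MB-231 after cytokinesis failure.

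Few members were called in the mitotic slippage populations. In HCC1806, 8 of 77 were higher (4 of each subunit) and 0 lower by edgeR, with 0 lower by DESeq2 and a median of 0.058. Of all genes, 1.53% were higher and 1.81% lower, so the higher members lay above the background share. That share was not matched for level, and the quartiles of the change over all genes were -0.11 and 0.11. At an unadjusted p under 0.05, 32 members were higher and 1 lower, against 1655 of all 11467 genes in either direction. A positive fold change was seen in 64 of 77 members and 5781 of all genes. RPL35 rose from 725 to 759 CPM in control to 890 to 911 in slippage (0.27 ± 0.038, adjusted p = 4.91e-07), without overlap. RPS14 (0.18 ± 0.036) and RPL22 (0.14 ± 0.031) rose too, and kept their calls when any 1 library was left out, whereas RPS10, RPL29, RPS21 and RPS19 did not. RPL22 had 1987, 2033 and 1950 CPM in control and 2196, 2228 and 2164 in slippage. The count of higher members was 19 without control replicate 2, 5 in the fits that dropped control 1, control 3, slippage 1 or slippage 2, and 4 by DESeq2.

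In the MDA-MB-231 slippage population 3 members were higher and 3 lower, all of the large subunit, with a median of 0.0061. Of all genes, 3.27% were higher and 2.91% lower, so both counts of members lay near the background share. RPL8, a protein of the peptidyl transferase centre, had 2024, 2149 and 2018 CPM in control and 1805, 1678 and 1518 in slippage, without overlap (-0.31 ± 0.046, adjusted p = 2.54e-05). RPL11 (-0.20 ± 0.046) and RPL6 (-0.15 ± 0.037) fell, and RPL39 (0.22 ± 0.056), RPL36A (0.17 ± 0.043) and the stalk protein RPLP1 (0.14 ± 0.041) rose. No small subunit gene was called by edgeR on all 12 libraries or by DESeq2, with 3 higher and 1 lower at an unadjusted p under 0.05. RPS27 (0.12 ± 0.042, adjusted p = 0.0735) passed in edgeR without both libraries that stood apart (adjusted p = 0.0299) and with only the groups compared (adjusted p = 0.0232). Only the RPL8 call of these 6 held without any 1 library. Without slippage replicate 3, which stood apart, or without control replicate 1, no member was higher, and without control replicate 3, 1 was higher and 1 lower.

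Cytokinesis failure gave changes in both directions in HCC1806. There 12 of 77 members were higher (6 of each subunit) and 3 lower (2 large, 1 small), with a median of 0.035. Of all genes, 8.37% were higher and 8.63% lower, so the higher members were above the background share and the lower members below it. RPL35 (0.17 ± 0.038), RPS23 (0.16 ± 0.039), RPL29 (0.14 ± 0.041), RPSA (0.12 ± 0.031) and RPL10 (0.12 ± 0.033) rose. RPL34 had 935, 993 and 955 CPM in control and 865, 931 and 849 in cytokinesis failure (-0.12 ± 0.036, adjusted p = 0.01), without overlap. RPS3A (-0.12 ± 0.034) and RPL11 (-0.11 ± 0.033) also fell. None of these 3 was lower without control replicate 2 or without cytokinesis failure replicate 1. The count of higher members was 24 without control replicate 2, 6 without control replicate 1 or 3 or cytokinesis failure replicate 2, 7 without its replicate 3, and 28 on log2(TPM + 1).

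In the MDA-MB-231 cytokinesis failure population 6 members were lower (5 large, 1 small), with a median of -0.030. Of all genes, 2.29% were higher and 2.35% lower. None was higher by edgeR, with 2 at an unadjusted p under 0.05 and 0 by DESeq2. RPS14, whose loss causes the anaemia of a myelodysplastic syndrome, had 663, 676 and 712 CPM in control and 454, 555 and 540 in cytokinesis failure, a change of -0.40 ± 0.074 (adjusted p = 0.004). Control and doubled libraries did not overlap. RPL8 had 1737, 1793 and 1877 CPM against 2018 to 2149 in control (-0.19 ± 0.046, adjusted p = 0.0078). RPL4, which lines the peptide tunnel (-0.16 ± 0.048), RPL24 (-0.16 ± 0.043), and RPL6 (-0.16 ± 0.037) fell too, as did RPL19 (-0.14 ± 0.040), named after its values were seen. The RPL4 call was lost by DESeq2 (adjusted p = 0.0727), without any 1 control library and without cytokinesis failure replicate 2 or 3. RPL24 lost its call without any 1 control library, RPL6 without control replicate 2 or 3, and RPL8 without control replicate 2 or cytokinesis failure replicate 1. On log2(TPM + 1) the calls of RPL4, RPL6, RPL8 and RPL24 were lost (adjusted p = 0.156 to 0.318). RPL5 (-0.089 ± 0.041, adjusted p = 0.248) passed as lower without both libraries that stood apart (adjusted p = 0.0224). Without both libraries that stood apart 11 members were lower, and the count was 1 without control replicate 2 and 2 without control replicate 3. Leaving out cytokinesis failure replicate 3 gave 1 higher member.

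RPL29, RPL35, RPS14 and RPS21 were among the members higher in all 3 doubled populations of HCC1806, which share the control libraries. RPS14 had 705, 689 and 716 CPM in control against 787 to 818 in fusion, 785 to 803 in slippage and 753 to 758 in cytokinesis failure (0.18 ± 0.036, 0.18 ± 0.036 and 0.10 ± 0.035). No library of a doubled population overlapped the control. For cytokinesis failure the RPS14 call was lost with 5 of the 6 libraries left out in turn, by DESeq2 (adjusted p = 0.068) and when counts on pseudogene rows were added (adjusted p = 0.13). The RPS21 call there was lost without control replicate 1 or 3 or cytokinesis failure replicate 2 or 3 and with only the groups compared (adjusted p = 0.0768), and that of RPL29 without control replicate 2. For slippage the RPS21 call was lost with 5 of the 6 libraries left out in turn and by DESeq2 (adjusted p = 0.0652), as was that of RPL29 (adjusted p = 0.12 by DESeq2). No member was called in the same direction in all 3 populations of MDA-MB-231.

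**Figure D3:**
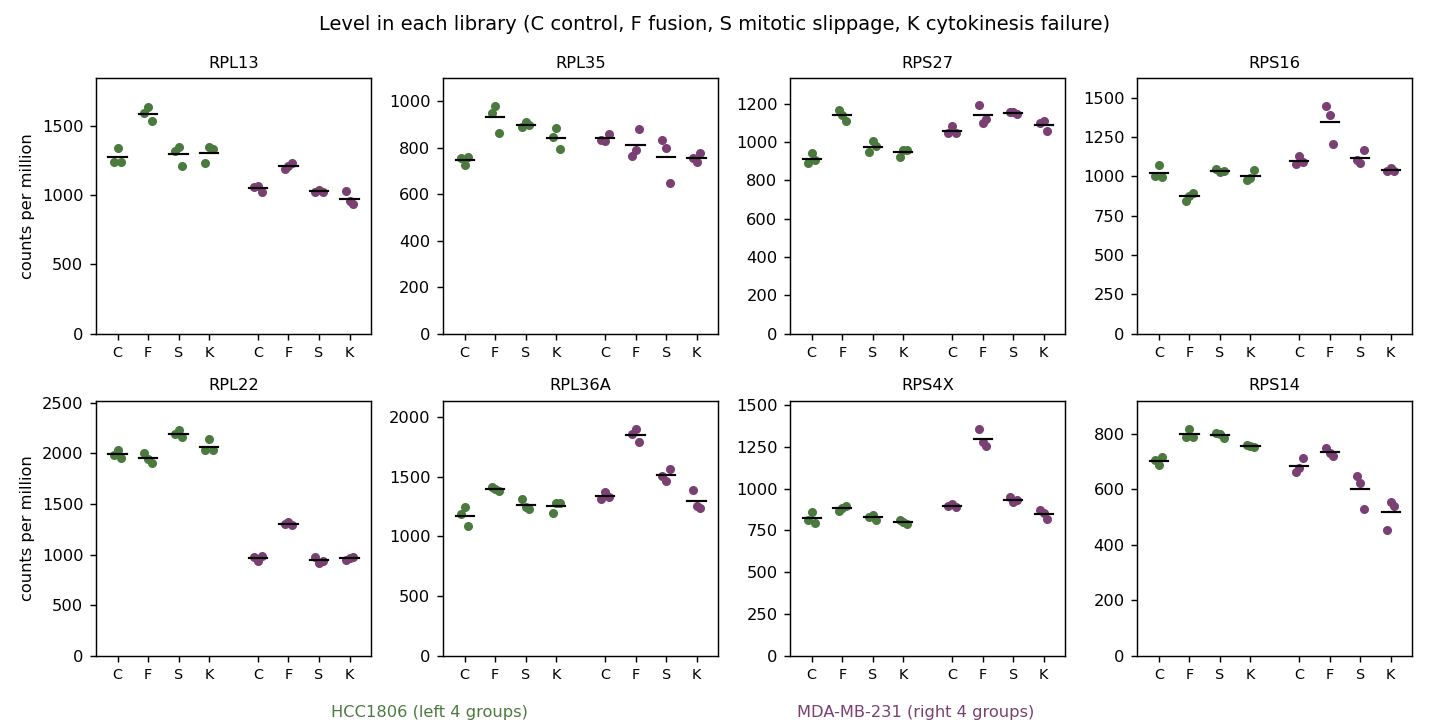
CPM of 8 genes in each library (points) with the mean of 3 replicates (horizontal lines), HCC1806 on the left and MDA-MB-231 on the right of each panel, from 0. RPS16 falls to 843 to 896 CPM in fused HCC1806 cells and reaches 1208 to 1445 in fused MDA-MB-231 cells, and RPS4X reaches 1253 to 1359 in the latter.

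The fused population was also set against the other doubled populations, a comparison that leaves out the parental control. In HCC1806, 34 of 77 members were higher in fusion than in slippage and 3 lower (background 4.2% and 5.02%), with a median of 0.091. The higher count was 22 without fusion replicate 1 or 2. Against cytokinesis failure, 46 were higher and 2 lower (background 8.96% and 8.96%), with a median of 0.11, but 7 and 6 on log2(TPM + 1). That scale moved the median of all genes to -0.077, and centring each library on its median gave 32 higher and 2 lower. RPL13 (0.30 ± 0.038 and 0.28 ± 0.038), RPL34 (0.21 ± 0.036 and 0.34 ± 0.036) and RPS29 (0.29 ± 0.036 and 0.25 ± 0.036) were higher in both. RPS16 was lower in both (-0.25 ± 0.035 and -0.20 ± 0.035), and RPL22 (-0.17 ± 0.031) and RPS13 (-0.11 ± 0.034) were lower than in slippage, though the RPS13 call was lost without fusion replicate 1, slippage replicate 1 or slippage replicate 2 (adjusted p up to 0.153) and on TPM.

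In MDA-MB-231, 46 members were higher in fusion than in slippage (background 9.09%) and 50 higher than in cytokinesis failure (background 12.6%), with medians of 0.16 and 0.17. None was lower in either by edgeR or DESeq2 or at an unadjusted p under 0.05 (background 8% and 11.8%), though 1 was lower than in cytokinesis failure without replicate 2 of the latter. The higher counts were 9 and 19 on log2(TPM + 1), and 2 were lower than in cytokinesis failure. On that scale the medians of all genes moved to -0.080 and -0.10. Centring each library on its median gave 41 higher and 0 lower in each of these comparisons. RPS4X (0.47 ± 0.043 and 0.62 ± 0.043), RPS27A (0.47 ± 0.043 and 0.50 ± 0.043) and RPL7 (0.43 ± 0.045 and 0.52 ± 0.045) were higher in both. Higher than the control and than both other doubled populations were 30 members in HCC1806 and 33 in MDA-MB-231. The share of all genes with this overlap was not counted, and its contrasts share the fusion libraries.

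Slippage and cytokinesis failure differed little from each other. In HCC1806, 4 members were higher in slippage (background 4.08%), among them RPS3A (0.15 ± 0.034) and RPL34 (0.13 ± 0.037), and 0 were lower by edgeR, by DESeq2 or at an unadjusted p under 0.05 (background 2.72%). In MDA-MB-231, 5 were higher (background 2.1%) and 1 lower (background 1.08%). RPL36A (0.22 ± 0.043), RPL39 (0.23 ± 0.056) and RPS3A (0.18 ± 0.043) were higher and RPL28 (-0.19 ± 0.053) was lower. Without both libraries that stood apart the counts were 9 and 0, and without slippage replicate 1 they were 1 and 2. The higher count was 2 without slippage replicate 2 or without cytokinesis failure replicate 2 or 3, and 0 were lower without slippage replicate 2 or 3 or cytokinesis failure replicate 1 or 3. In HCC1806 the count was 1 without cytokinesis failure replicate 1 and 2 without slippage replicate 1 or 2.

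The calls in the fused populations of the 2 lines were set side by side. Of the 54 genes higher in HCC1806 and the 42 higher in MDA-MB-231, 26 were common (13 of each subunit), which is 48.1% of the former and 61.9% of the latter. Over all 77 members, 54.5% were called higher in MDA-MB-231 and 70.1% in HCC1806, so in each line the share called was no larger among genes called in the other line than among all members. A further 28 were called in HCC1806 alone (20 large, 8 small) and 16 in MDA-MB-231 alone (7 and 9). RPL4, RPL11, RPL12, RPL17, RPL26, RPL38 and RPS6 were called in neither, although RPL11 passed in MDA-MB-231 without both libraries that stood apart and RPS6 in HCC1806 without control replicate 2 (adjusted p = 0.0482). Across the 77 genes the size of the change in one line did not follow that in the other (Pearson r = -0.15, Spearman rho = -0.16, a description across genes that share libraries).

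The difference of the fusion changes between lines, tested as an interaction on all 24 libraries, was higher in HCC1806 for 7 members and lower for 15 (background 5.48% and 6.57%), of which 10 were of the small subunit. RPS16 differed most, with -0.23 in HCC1806 and 0.29 in MDA-MB-231 (difference -0.53 ± 0.060, adjusted p = 2.38e-10). RPL22 (-0.47 ± 0.050), RPS4X (-0.44 ± 0.055) and RPL7 (-0.27 ± 0.059) rose less in HCC1806 or did not rise there. RPL5 (0.23 ± 0.053), RPS27 (0.21 ± 0.054), RPL10 (0.20 ± 0.049) and RPS15 (0.14 ± 0.049) had the larger change in HCC1806, the RPS15 call being lost by DESeq2 (adjusted p = 0.069) and in 10 of the 12 fits that left out 1 library. On log2(TPM + 1) the split was 12 higher and 6 lower, and RPL7 lost its call there. Without HCC1806 control replicate 1 or 3, HCC1806 fusion replicate 2 or MDA-MB-231 fusion replicate 1, 4 members were higher.

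For slippage the interaction was higher in HCC1806 for 7 members and lower for 1 (background 1.66% and 1.88%). RPL8 (0.38 ± 0.053), RPS14 (0.37 ± 0.075) and RPL6 (0.22 ± 0.050) were higher and RPLP1 (-0.16 ± 0.050) lower. For cytokinesis failure it was higher for 8 and lower for 0 (background 3.31% and 3.22%), with 1 lower at an unadjusted p under 0.05 and 1 by DESeq2. RPS14 differed by 0.51 ± 0.076 (adjusted p = 8.30e-06), RPS23 by 0.33 ± 0.083, RPL8 by 0.22 ± 0.053 and RPL19 by 0.22 ± 0.051. Leaving out 1 library moved the slippage count between 3 (HCC1806 control replicate 1 or 3, MDA-MB-231 control replicate 3) and 11 (MDA-MB-231 slippage replicate 1), with 4 without HCC1806 slippage replicate 2. It moved the cytokinesis failure count between 3 (HCC1806 control replicate 3 or cytokinesis failure replicate 2) and 12 (HCC1806 control replicate 2), with 4 without HCC1806 control replicate 1 and 5 without MDA-MB-231 control replicate 2.

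**Figure D4:**
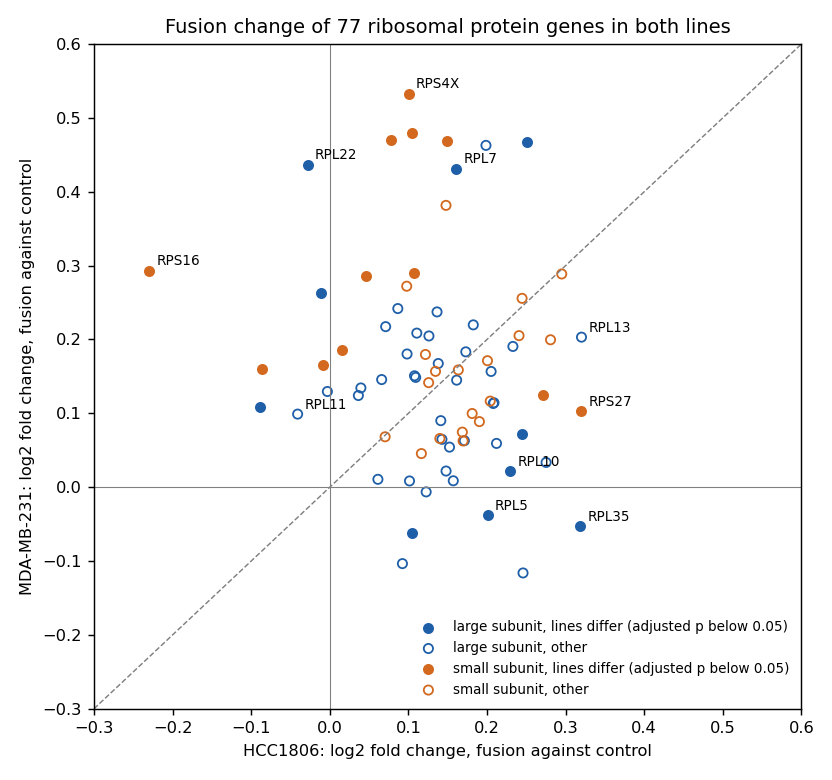
Log2 fold change of fusion against control for 77 genes, HCC1806 on the horizontal and MDA-MB-231 on the vertical axis; filled points have an interaction adjusted p below 0.05 and the dashed line marks equal change. RPS16 lies at -0.23 and 0.29, RPS4X at 0.10 and 0.53, and the cloud shows no rising trend (r = -0.15).

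In the fused MDA-MB-231 population, members with large changes lay among genes with large changes. For each member, the median fold change of tested non-member genes within 5 Mb on either side was taken from annotated gene positions on GRCh38. Over the 75 members with more than 9 such neighbours, the member's change and the neighbours' median had r = 0.80 (Spearman 0.68). RPS7 is not among these members. The value is a description over genes, some of which share neighbours and all of which share libraries. The X-linked RPS4X, RPL36A and RPL39 changed by 0.53, 0.47 and 0.46, where neighbours had medians of 0.32 (27 genes), 0.38 (30) and 0.50 (25). RPL10, on the same chromosome, had 0.022 beside a neighbour median of -0.23 (50 genes). The neighbour medians were 0.33 for RPL22 on chromosome 1 (79 genes), 0.29 for RPS27A (17) and 0.39 for RPS7 (9) on chromosome 2, and 0.33 for RPS20 (19) and 0.24 for RPL7 (17). RPS16 rose by 0.29 beside a neighbour median of 0.035 (138 genes). Of the 75 members, 70 lay above their neighbours, by a median of 0.15, and gene copy number was not tested.

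The same comparison in fused HCC1806 cells gave r = 0.41 (Spearman 0.33) over all 77 members. There 70 of 77 lay above their neighbours, by a median of 0.14. RPS27 changed by 0.32 beside a neighbour median of 0.035 (132 genes), RPL35 by 0.32 beside 0.048 (91) and RPL13 by 0.32 beside 0.15 (52). RPS16 fell by 0.23 where its 120 neighbours had a median of 0.037. RPL22 had -0.028 and its 87 neighbours -0.20. In the slippage and cytokinesis failure populations of MDA-MB-231 the values of r were 0.59 and 0.54, with 41 and 27 of 75 members above their neighbours. In those of HCC1806 they were -0.079 and 0.18 (Spearman -0.16 and -0.17), with 54 and 48 of 77 above.

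**Figure D5:**
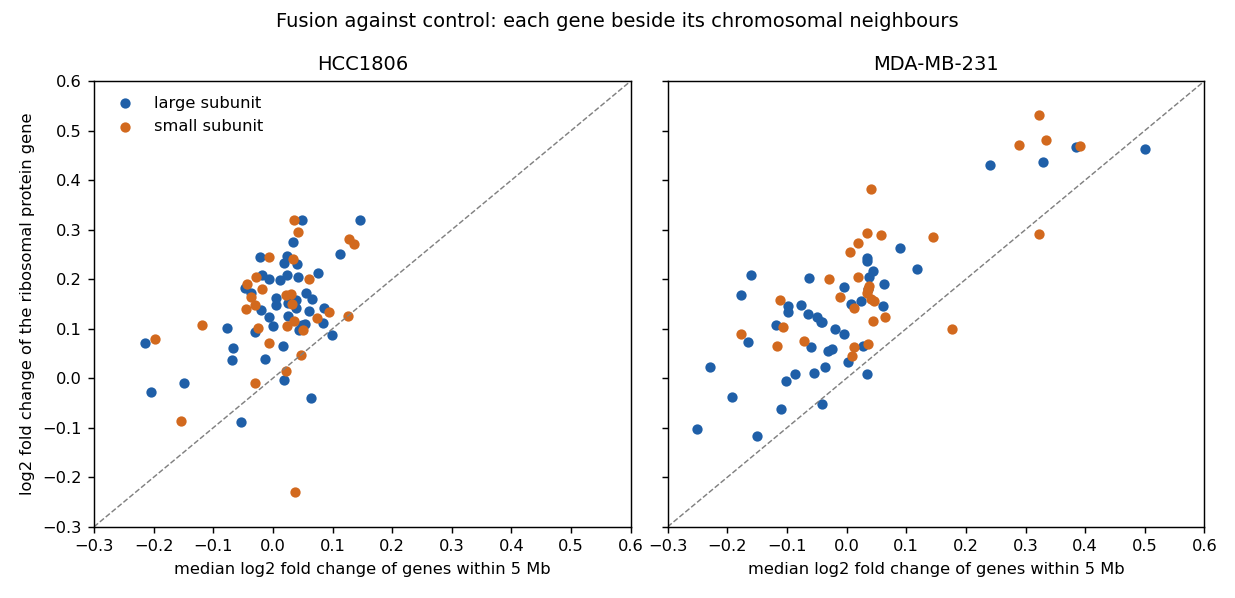
Log2 fold change of each ribosomal protein gene in fusion against control (vertical) and the median of tested non-member genes within 5 Mb (horizontal), by line, with the line of equal change dashed. In MDA-MB-231 the points rise together (r = 0.80 over 75 members) and 70 of these 75 lie above the dashed line, and in HCC1806 70 of 77 do. MDA-MB-231 members with too few neighbours for r, such as RPS7, are drawn but are not among the 75.

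The start-site tract was set beside the changes. In HCC1806 fusion, the 46 genes whose start began with C and 4 further pyrimidines had a median of 0.13, with 29 higher, and the 16 matched genes without it 0.14, with 11 higher. In MDA-MB-231 fusion the medians were 0.16 (28 of 46 higher) and 0.077 (7 of 16 higher). No test was made of this difference. Spearman's rho of the change with the control level in TPM was -0.018 in HCC1806 fusion and -0.062 in MDA-MB-231 fusion, a description over 77 genes that share libraries.

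Ribosomal proteins named outside the RPL and RPS pattern include FAU, made as a fusion with a ubiquitin-like protein, and RACK1, listed under its older symbol GNB2L1. In MDA-MB-231 fusion both rose, by 0.18 ± 0.045 and 0.18 ± 0.040. In HCC1806 fusion GNB2L1 rose (0.12 ± 0.032) and FAU did not pass (0.070 ± 0.034, adjusted p = 0.204). GNB2L1 fell in MDA-MB-231 slippage (-0.17 ± 0.040) and cytokinesis failure (-0.33 ± 0.040, adjusted p = 1.28e-07). Of 6 tested ribosomal protein paralogs, 1 was higher and 1 lower in MDA-MB-231 fusion (background 9.34% and 8.11%). All 6 were lower in parental HCC1806 than in parental MDA-MB-231 (background 37.4%).

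Translation factors and other TOP mRNAs (24 genes) split in HCC1806 fusion, with 6 higher and 4 lower (background 5.33% and 5.55%) and a median of 0.016. Among those lower were PABPC1, the poly(A)-binding protein (-0.37 ± 0.035), TPT1 (-0.17 ± 0.033) and the initiation factor subunit EIF3K (-0.24 ± 0.046). In MDA-MB-231 fusion 11 of 24 were higher (background 9.34%), with a median of 0.14, among them the nucleolar chaperone NPM1 (0.37 ± 0.050), TPT1 (0.30 ± 0.047) and EIF3F (0.29 ± 0.057). TPT1 thus fell in the fused population of one line and rose in that of the other.

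Ribosome biogenesis factors, which process rRNA and assemble subunits in the nucleolus, were counted in the same way. Of 46 tested, 1 was higher and 5 lower in HCC1806 fusion (median -0.081) and 6 higher and 9 lower in MDA-MB-231 fusion (median -0.043). In HCC1806 slippage 2 were higher and 2 lower (median -0.043). In HCC1806 cytokinesis failure 28 of 46 were lower and 1 higher (median -0.22), among them the helicase DDX21 (-0.34 ± 0.035), WDR43 (-0.26 ± 0.036) and RRP9 (-0.70 ± 0.099). In MDA-MB-231, 18 were lower after slippage (median -0.22), NOP58 (-0.40 ± 0.062) and DDX21 (-0.28 ± 0.046) among them, and 7 after cytokinesis failure (median -0.12). Background shares, higher and lower, were 5.33% and 5.55% in HCC1806 fusion, 1.53% and 1.81% in slippage and 8.37% and 8.63% in cytokinesis failure. In MDA-MB-231 they were 9.34% and 8.11%, 3.27% and 2.91%, and 2.29% and 2.35%, in the same order.

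Other protein complexes showed smaller shifts in fusion. Of 76 mitochondrial ribosomal protein genes, 9 were higher and 3 lower in each line's fused population, with medians of 0.078 in HCC1806 and 0.036 in MDA-MB-231. Of 37 tested proteasome subunit genes, 4 were higher and 3 lower in HCC1806 (median 0.056) and 3 and 3 in MDA-MB-231 (median 0.025). Of all genes, 5.33% were higher and 5.55% lower in HCC1806 fusion, and 9.34% and 8.11% in MDA-MB-231 fusion. The proteasome counts in MDA-MB-231 lay near that background. Of 15 genes of mTORC1 and TOP mRNA control, RHEB (0.25 ± 0.078) rose in HCC1806 fusion, and EIF4EBP2 (0.36 ± 0.087), LARP1 (0.18 ± 0.050) and EIF4EBP1 (0.35 ± 0.12) rose in MDA-MB-231 fusion. Of 8 dedicated ribosomal protein chaperones, PDCD2L (0.42 ± 0.11) rose in HCC1806 fusion, and BCCIP (-0.21 ± 0.048), GRWD1 (-0.25 ± 0.060) and LTV1 (-0.28 ± 0.070) fell in HCC1806 cytokinesis failure. In the latter comparison 8.63% of all genes were lower.

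Markers that could move with a result were read in the same libraries. The summed level of 11 basal epithelial genes in HCC1806 was 1846 to 1872 CPM in control and 1657 to 1727 in fusion, and that of 10 mesenchymal genes in MDA-MB-231 was 4886 to 4992 in control and 5252 to 5440 in fusion. The nuclear RNA MALAT1 held 0.183% to 0.202% of counts in HCC1806 control and 0.177% to 0.18% in fusion, and 0.158% to 0.196% and 0.126% to 0.178% in MDA-MB-231. Summed immune markers (11 genes) were 35.5 to 37.3 and 34.7 to 37.8 CPM in HCC1806 and 71.4 to 81.3 and 91.2 to 110.5 in MDA-MB-231, where CD3D, CD3E, MS4A1, NKG7 and TYROBP were at 0 counts in both groups. CD68, the only 1 of the 11 tested, was higher in MDA-MB-231 fusion (0.48 ± 0.081), slippage (0.62 ± 0.079) and cytokinesis failure (0.65 ± 0.079). The sums in MDA-MB-231 slippage and cytokinesis failure were 113.7 to 116.4 and 111.0 to 125.8 CPM. In HCC1806 fusion 3 of 11 basal genes were lower, as were 4 of 6 tested mesenchymal genes, among them FN1 (-1.26 ± 0.19), CDH2 (-0.71 ± 0.11) and CD44 (-0.20 ± 0.033). The summed level of the mesenchymal genes there was 1954 to 1982 CPM in control and 1666 to 1733 in fusion, without overlap, and in MDA-MB-231 fusion 4 of 8 tested mesenchymal genes were higher and 2 lower. Fibroblast markers (10 genes) summed to at most 13.4 CPM in the control and fusion groups of both lines. The part of these values in the ribosomal protein changes was not tested.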

How the data were processed

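TAGseq libraries of HCC1806 and MDA-MB-231 cells (24 libraries, 8 groups of 3) were read from a table of estimated counts per gene and a table of TPM that the authors deposited. STAR, Salmon and the GRCh38 (hg38) build are named in the submitters' processing notes, and their versions, the annotation, strand setting and any use of molecular identifiers are not given in the sources used here. The deposited estimated counts were rounded to whole numbers; the deposited TPM are scaled by length and library by the authors.

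Each line was fitted apart on its 12 libraries with edgeR 4.0.16 (R 4.3.3; filterByExpr, TMM scaling, robust quasi-likelihood test), and line differences on all 24. Benjamini-Hochberg adjustment ran over all genes tested, with a threshold of 0.05, and SE is the fold change over the root of F. limma 3.58.1 on log2(TPM + 1) and log2(TPM + 0.1), DESeq2 1.42.0, other scalings and filters, summed pseudogene rows, the replicate block and leaving out libraries were alternatives. The code was tested on simulated data. Library totals (2455707 to 4030297 counts) limit the precision, and SEs hold both counting error and culture spread. Background shares cover all genes tested and were not matched for level, so they include many genes measured less precisely than the abundant members.

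The members and lists were chosen with earlier results of these data known. Genes named were the 4 largest called rises and falls of each subunit per control comparison whose groups did not overlap, members called in all 3 populations, the 2 with the smallest adjusted p per subunit and direction elsewhere, 9 fixed genes, the 3 highest and lowest in TPM, up to 3 per list, and any sole call. Same-numbered replicates were not paired: correlations of their deviations ran from -0.097 to 0.077 in HCC1806 and -0.191 to 0.088 in MDA-MB-231. The low-pass genome sequencing of the study was not analysed here. Results for some genes that the naming rule selects are not reported here.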

Additional observations from a re-analysis of the deposited data

Results flagged for a closer look

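The results here were singled out because the change against control differed between the lines by an interaction test (edgeR's quasi-likelihood test, Benjamini-Hochberg adjustment, 24 libraries). Values are the HCC1806 change minus the MDA-MB-231 change in log2.

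For fusion, RPS16 differed by -0.53 (adjusted p = 2.38e-10), RPL22 by -0.47 (adjusted p = 1.03e-11), RPS4X by -0.44 (adjusted p = 4.06e-09) and RPL7 by -0.27 (adjusted p = 0.000466). RPL5 differed by 0.23 (adjusted p = 0.000829), RPS27 by 0.21 (adjusted p = 0.00333), RPL10 by 0.20 (adjusted p = 0.00176) and RPS15 by 0.14 (adjusted p = 0.0427). The RPS15 call was lost by DESeq2 (adjusted p = 0.069) and in 10 of the 12 fits that left out 1 library.

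For slippage, RPL8 differed by 0.38 (adjusted p = 5.80e-07), RPS14 by 0.37 (adjusted p = 0.00212), RPL6 by 0.22 (adjusted p = 0.00381) and RPLP1 by -0.16 (adjusted p = 0.0481). The RPLP1 call was lost in 10 of the 12 fits that left out 1 library. For cytokinesis failure, RPS14 differed by 0.51 (adjusted p = 8.30e-06), RPS23 by 0.33 (adjusted p = 0.0184), and RPL8 and RPL19 each by 0.22 (adjusted p = 0.00337 and 0.00237). Without both libraries that stood apart, RPS23 had an adjusted p of 0.0786.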

How the results depend on the processing

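Counts below are ribosomal protein genes called higher or lower, against the values in the report. On log2(TPM + 1), fusion against control gave 25 higher, 2 lower and a median of 0.10 in HCC1806, and 8 higher (9 with a pseudocount of 0.1), 1 lower and 0.024 in MDA-MB-231. Slippage gave 1 higher in HCC1806 and 0 in MDA-MB-231, and cytokinesis failure 28 higher, 0 lower and 0.084 in HCC1806 and 1 lower in MDA-MB-231. In HCC1806, fusion against slippage gave 13 higher, against cytokinesis failure 7 higher, 6 lower and 0.017, and slippage against cytokinesis failure 0 higher, 1 lower and a reversed median of -0.069. In MDA-MB-231 these were 9 and 0.070, then 19, 2 and 0.046, then 0 and 0. The fusion interaction gave 12 higher (11 with 0.1), 6 lower and a reversed median of 0.079, the slippage interaction 4 and 0, the cytokinesis failure interaction a median of 0.11, and the parental lines 28 lower and 0.078. Centring each library, chosen after seeing the data, gave in HCC1806 slippage 3 higher, cytokinesis failure 6 and 1, fusion against slippage 19 and slippage against cytokinesis failure 0, in MDA-MB-231 slippage 0 higher, cytokinesis failure 1 lower and slippage against cytokinesis failure 0 and 0, and 0 lower for the slippage interaction.

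DESeq2 gave 4 higher in HCC1806 slippage, 3 and 0 in MDA-MB-231 slippage against cytokinesis failure, and 5 and 1 in the cytokinesis failure interaction, as did RLE factors. TMM factors from other genes gave 0 lower in the slippage interaction. With no filter there were 6 lower in MDA-MB-231 slippage, 1 lower in MDA-MB-231 fusion against cytokinesis failure and 0 lower in the slippage interaction. With only the groups compared there were 5 higher in HCC1806 slippage, 7 in HCC1806 cytokinesis failure, 4 lower in fusion against cytokinesis failure there, 1 lower in MDA-MB-231 fusion, 6 higher in its slippage, 2 and 0 in its slippage against cytokinesis failure, and 2 lower in the slippage interaction. Same-numbered samples shared only a number. The replicate block gave 4 lower in HCC1806 fusion against cytokinesis failure, 3 higher in MDA-MB-231 slippage against cytokinesis failure and 0 lower in the slippage interaction. Without both libraries that stood apart there were 1 lower in MDA-MB-231 fusion, 11 lower in cytokinesis failure, 9 and 0 in slippage against cytokinesis failure, and 11 and 13 higher in the fusion and cytokinesis failure interactions.

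Leaving out 1 library gave, in HCC1806, 1 to 2 lower in fusion, 5 to 19 higher in slippage, 6 to 24 higher, 0 to 3 lower and medians of 0.017 to 0.069 in cytokinesis failure, 22 to 30 higher in fusion against slippage, 1 to 2 lower in fusion against cytokinesis failure, and 1 to 6 higher with medians of -0.0095 to 0.026 in slippage against cytokinesis failure. In MDA-MB-231 it gave 0 to 2 higher and 1 to 4 lower with medians of -0.015 to 0.029 in slippage, 0 to 1 higher and 1 to 6 lower in cytokinesis failure, 0 to 1 lower in fusion against it, and 1 to 7 higher and 0 to 2 lower in slippage against it. The interactions gave 4 to 8 higher with medians of -0.026 to 0.028 for fusion, 3 to 11 higher and 0 to 1 lower for slippage, and 3 to 12 higher and 0 to 1 lower for cytokinesis failure, and the parental median ran from 0.20 to 0.27. Of 149 named results, 35 lost and 3 gained their call on log2(TPM + 1), 13 and 1 by DESeq2, and none lost it under the stricter filter. No counts lay on genes with a mitochondrial name, so leaving such genes out could not change the share of the members. The cause of these changes was not tested.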
